A study of Mus musculus with 24 samples.

Results

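The libraries compared here were 4 from islets labelled as lacking Cop1 together with Etv1, Etv4 and Etv5, and 3 control libraries of the same set. They were chosen by their labels, as the libraries of these 2 groups whose titles carry a set 1 sample number, and they make up 7 of the 22 libraries used. Another control title was left out because its number also stands in a Cop1 deletion title. The series measured RNA from islets of mice aged 3-4 months on a mixed background by sequencing, and the islets were cultured and then picked by hand. Controls were labelled Cop1 fl/fl with no Cre named. The 4 Etv1/4/5 libraries carried the floxed alleles Cop1fl/fl, Etv1fl/fl and Etv5fl/fl with Pdx1.CreERT2, and were labelled Etv4ko/ko, a knockout of both alleles that does not depend on Cre. The Cop1 deletion libraries of set 1 (3 libraries, Cop1 fl/fl with Pdx1.CreERT2) were the nearest group. Set 2, whose titles carry another series of sample numbers, held 4 control and 4 Cop1 deletion libraries of the same genotypes and 4 Etv4/5 libraries (Cop1fl/fl, Etv4ko/+, Etv5fl/fl, Pdx1.CreERT2). Pdx1 is active in β cells and in some other islet cells. CreERT2 works only once tamoxifen binds it, and how tamoxifen was given is not stated in the labels. By their labels, controls differ from the other groups in Cre as well as in Cop1 status. Nothing in the labels ties a library to an animal, so the p-values measure the spread between these libraries.

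COP1 is the substrate-binding part of a ubiquitin ligase. Its known substrates include the ETS-family transcription factors ETV1, ETV4 and ETV5 (the PEA3 group) and the AP-1 factor c-Jun, which it sends for destruction by the proteasome. In islets, β cells release insulin in response to glucose, a task that rests on transcription factors such as MAFA, on the glucose transporter GLUT2 and on the machinery of granule release. Comparing the Etv1/4/5 libraries with control asks which expression differences are present when Cop1 is deleted and the 3 ETV factors are deleted as well.

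Some libraries stood apart or went against their labels. Esr1, the estrogen receptor gene that supplies the hormone-binding part of CreERT2, was at 0.169, 99.1 and 0.191 RPKM in control replicates 1, 2 and 3. RPKM counts reads per gene, scaled to gene length and to the reads of the library. The 4 Etv1/4/5 libraries had 81, 58.7, 72.5 and 54.8 RPKM of Esr1, and the Cop1 deletion libraries 106, 106 and 111. Control replicate 2 thus lay with the libraries labelled as carrying Cre for this gene, but its Aqp3 level, 0.117 RPKM, was that of the other controls. Xist was 32.7 RPKM in control replicate 3, which had no Y-linked transcripts above 0.0237 RPKM of Ddx3y, whereas control replicates 1 and 2 and Etv1/4/5 replicates 1 and 2 had Ddx3y at 27.2 to 31.9 RPKM and Xist at or below 0.027. Etv1/4/5 replicates 3 and 4 had both, with Xist at 29.4 and 24.2 RPKM and Ddx3y at 3.48 and 9.87. Read depth relative to the deepest library of the table was 0.331 to 0.526 over the 7 libraries. Ins1 and Ins2 together took 39.6% ± 0.97 (SD, n = 3) of all RPKM in control and 38.3% ± 2.5 (n = 4) in the Etv1/4/5 libraries, a difference within the spread (exact permutation test, 2-sided p = 0.457, smallest possible 0.0286).

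The targeted genes were checked next. Cop1 (NCBI Gene 26374) was at 1.53, 1.22 and 1.55 RPKM in control and at 0.844, 1.04, 0.719 and 0.968 in the Etv1/4/5 libraries. The groups did not overlap, but the difference was not called (log2 fold change -0.48, SE 0.12, limma adjusted p = 0.0684). Without control replicate 2 it was called, with an adjusted p of 0.0333. Etv4 (NCBI Gene 18612) was at 0.0418, 0.0591 and 0.118 RPKM in control and at 1.53, 0.927, 1.5 and 1.1 in the libraries labelled Etv4ko/ko, so that each of these lay above each control. Etv4 was higher by 1.61 log2 units (SE 0.15, adjusted p = 5.22e-04), against the direction of its label. Etv1 ran from 5.67 to 7.2 RPKM in control and from 4.89 to 5.61 in the Etv1/4/5 libraries, without overlap (-0.27, SE 0.09, adjusted p = 0.164). Etv5 ran from 2.23 to 8.43 and from 2.57 to 4.85 RPKM, so the groups overlapped (-0.24, SE 0.36, adjusted p = 0.796). These values cover whole genes and not single exons, so the loss of the ETV genes rests on the labels.

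Of 13606 genes tested, 181 were higher and 90 lower in the Etv1/4/5 libraries than in control, at an adjusted p under 0.05 in limma on log2(RPKM + 0.5). That is 1.33% of genes called higher and 0.661% called lower, or 1.99% in either direction. Among them, 40 of the higher and 4 of the lower genes differed at least 2-fold. In each of the 181 and the 90 genes, the 4 Etv1/4/5 libraries lay entirely on one side of the 3 controls. The calls were made on these same values, so the lack of overlap is not separate support for them. The counts depended on single libraries. Without control replicate 2, the library with Esr1, 524 genes were higher (3.85%) and 374 lower (2.75%), and of 59 called genes examined singly 2, Meox1 and Th, lost their call. Without control replicate 1 the counts were 98 and 25, without Etv1/4/5 replicate 1 they were 92 and 26, and without Etv1/4/5 replicate 3 they were 88 and 28. The lower count was also 49 without Etv1/4/5 replicate 4, and 34 and 57 without Cop1 deletion replicates 3 and 4, which only help to estimate the spread. Scaling to equal total RPKM without Ins1 and Ins2 gave 121 and 110. With a term for libraries above 1 RPKM of Xist, added after the data were seen, 215 were higher and 123 lower.

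**Figure D1:**
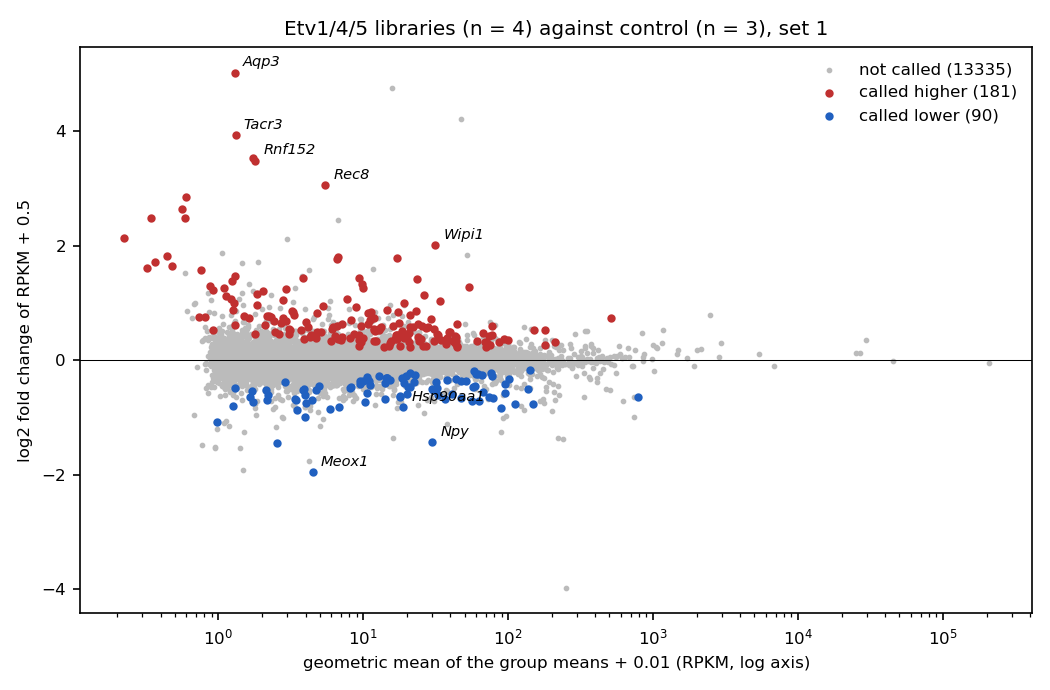
Log2 fold change of RPKM + 0.5 (Etv1/4/5 libraries, n = 4, against control, n = 3) against the geometric mean of the 2 group means plus 0.01, on a log axis. Each point is 1 of 13606 genes; the 181 called higher are red, the 90 called lower blue, and Aqp3 at 5.02 lies above the other points.

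Several of the largest rises were also present in islets with Cop1 deletion alone. Aqp3 encodes a channel for water and glycerol, Rnf152 a ubiquitin ligase of the lysosome, Tm4sf20 a membrane protein of the tetraspan type, Wipi1 a phosphoinositide-binding protein of autophagosome formation, Angpt2 a ligand of the endothelial receptor TIE2, and Ramp2 a partner of the calcitonin receptor-like receptor. These genes were higher in each of the 4 Etv1/4/5 libraries than in any control, and they were called in each alternative tried. Values for Cop1 deletion stand beside them, but both comparisons use the same 3 controls.

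Aqp3 (NCBI Gene 11828, chromosome 4) was at 0, 0.117 and 0.125 RPKM in control and at 19.1, 14, 23.8 and 17.5 in the Etv1/4/5 libraries. It was all but undetected in control and present in each of the other libraries. The log2 fold change was 5.02 (SE 0.17, adjusted p = 2.62e-07). In Cop1 deletion, Aqp3 was at 12.6, 17.1 and 13.3 RPKM. The Etv1/4/5 libraries differed from these by 0.35 (95% interval -0.02 to 0.73, adjusted p = 0.206). The promoter window of Aqp3 is shown because the gene changed most. It runs from 250 bases before to 50 after the start, at chr4:41098134-41098433 on the minus strand of GRCm38.p6 (RefSeq), a later build than the mm9 of the reads. It has no capitals, since it holds no CCGGAA, one form of the site that ETS factors bind, on either strand. Shorter forms of that site were not searched.
Aqp3: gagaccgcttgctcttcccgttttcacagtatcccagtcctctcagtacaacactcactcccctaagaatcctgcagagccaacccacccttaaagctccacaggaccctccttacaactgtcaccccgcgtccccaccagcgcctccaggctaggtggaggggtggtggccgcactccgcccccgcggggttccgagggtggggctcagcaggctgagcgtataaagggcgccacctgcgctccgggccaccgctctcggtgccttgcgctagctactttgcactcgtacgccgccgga

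Rnf152 (NCBI Gene 320311, chromosome 1) was at 0.395, 0.352 and 0.29 RPKM in control and at 10.8, 7.37, 10.2 and 7.89 in the Etv1/4/5 libraries, with no overlap. The log2 fold change was 3.49 (SE 0.13, adjusted p = 2.62e-07), and the Cop1 deletion libraries had 9, 8.78 and 8.1 RPKM, among the Etv1/4/5 values. The difference from Cop1 deletion was 0.05 (95% interval -0.22 to 0.33). Tm4sf20 (NCBI Gene 66261) was at 0.0649, 0.0459 and 0.146 RPKM in control and at 4.47, 2.45, 3.8 and 2.35 in the Etv1/4/5 libraries. All 4 lay above control (2.65, SE 0.23, adjusted p = 2.72e-04). Its level in Cop1 deletion, 6.28, 6.89 and 3.91 RPKM, was higher for 2 of 3 libraries than in any Etv1/4/5 library, and the difference from Cop1 deletion was -0.72 (adjusted p = 0.0635).

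Wipi1 (NCBI Gene 52639) was at 13.5, 16.2 and 15.2 RPKM in control and at 52.3, 41, 92.1 and 74.1 in the Etv1/4/5 libraries. The Etv1/4/5 values spread by more than 2-fold but stayed above control (2.01, SE 0.26, adjusted p = 0.00649). Angpt2 was at 3.06, 4.16 and 2.95 RPKM in control and at 15.6, 13, 13 and 10.6 in the Etv1/4/5 libraries (1.80, SE 0.13, adjusted p = 8.63e-05). Ramp2 was at 7.83, 9.98 and 9.45 RPKM against 39.7, 30.1, 34 and 26.5 (1.78, SE 0.12, adjusted p = 8.63e-05). Neither gene overlapped between the groups. The 14 endothelial markers tested held 0 called genes, with a median of 0.10 and 13 of 14 positive. Of all genes, 1.99% were called and 49% were positive, so 0 called among so few genes says little. The summed level of those markers was 257 to 279 RPKM in control and 252 to 300 in the Etv1/4/5 libraries, and their part in the rise of Angpt2 and Ramp2 was not tested. In bulk islets, a change in the number of cells of a type and a change in RNA per cell cannot be told apart.

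Further rises of this kind were seen in Dgkg, which encodes a diacylglycerol kinase (1.77, SE 0.14, adjusted p = 1.18e-04), Cyp17a1, an enzyme of steroid synthesis (1.64, adjusted p = 1.08e-04), Bik, a BH3-only protein of apoptosis (1.45, adjusted p = 0.00122), and the membrane protein gene Tmem116 (1.57, adjusted p = 0.00265). Gm17634, a predicted gene, rose by 2.48 (adjusted p = 5.28e-05). The differences of these 5 genes from Cop1 deletion ran from -0.23 for Cyp17a1 to 0.43 for Dgkg, and none was called. Over the 181 higher genes, the median log2 fold change was 0.57 against control, 0.42 for Cop1 deletion against the same controls and 0.17 for the Etv1/4/5 libraries against Cop1 deletion. Over all genes tested these medians were -0.0028, -0.0094 and 0.0043.

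**Figure D2:**
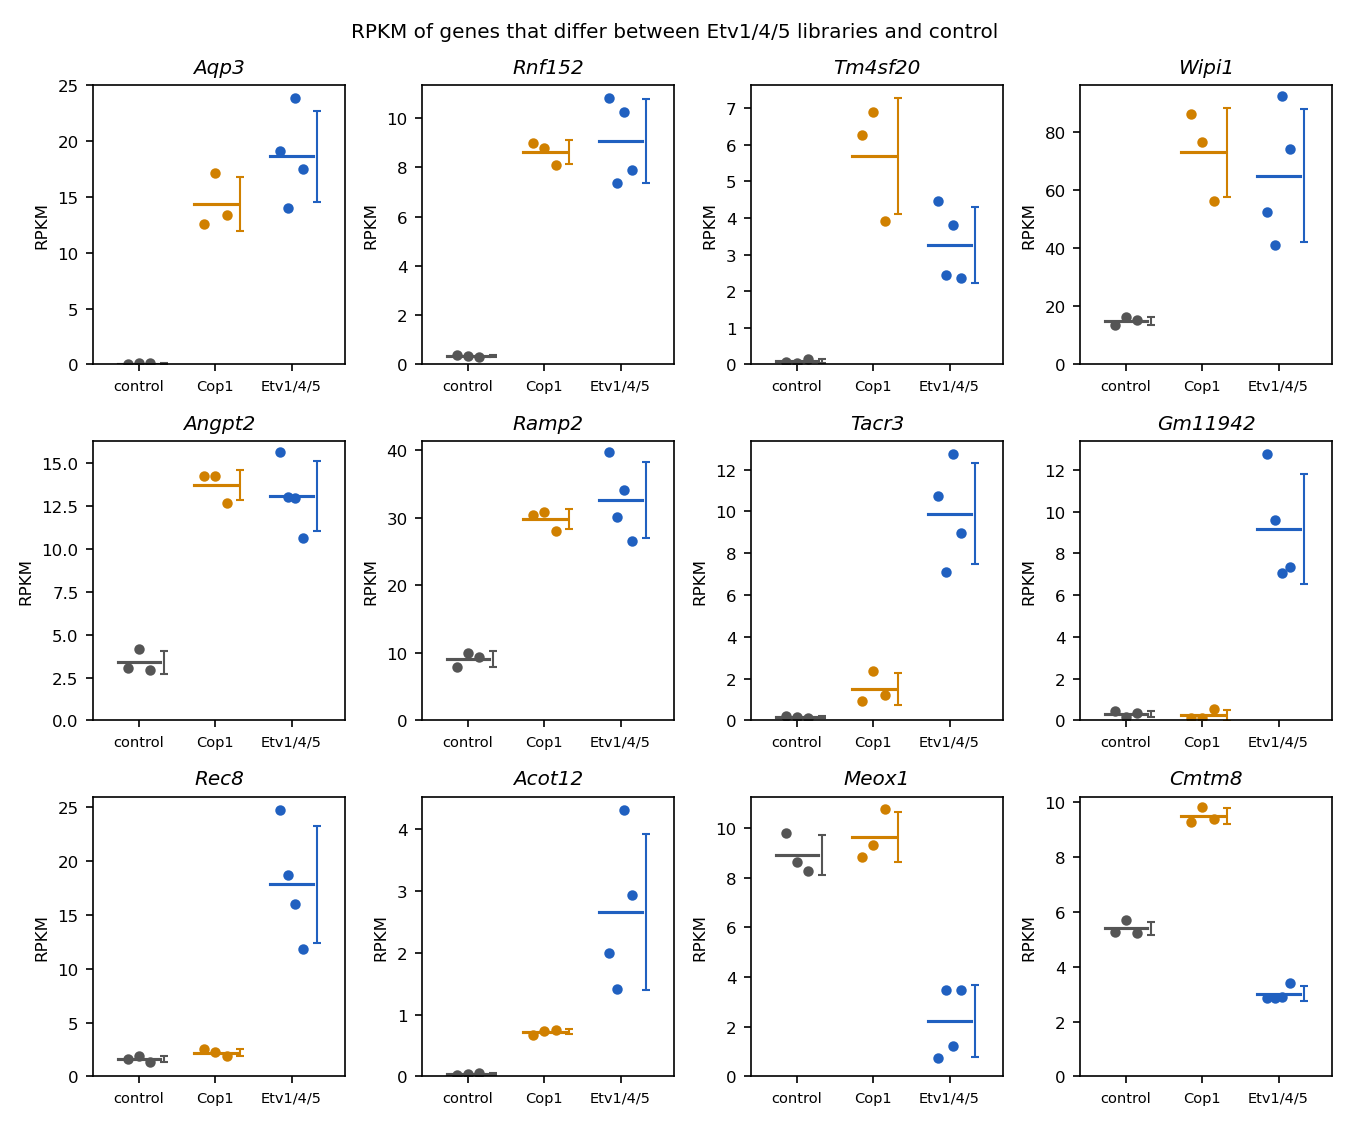
RPKM of 12 genes in the set 1 libraries (points), with the group mean (line) and SD (bar), for control (n = 3), Cop1 deletion (n = 3) and Etv1/4/5 libraries (n = 4). Aqp3 and Rnf152 are high in both deletion groups, Tacr3, Gm11942 and Rec8 are high mainly in the Etv1/4/5 libraries, and Cmtm8 lies below control in the Etv1/4/5 libraries and above it in Cop1 deletion.

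A second set of genes was high in the Etv1/4/5 libraries and called against Cop1 deletion too, where 976 genes were higher (7.17%) and 736 lower (5.41%). Scaled to equal total RPKM, 425 were higher and 2859 lower against Cop1 deletion. Tacr3 (NCBI Gene 21338), the receptor for neurokinin B, was at 0.207, 0.156 and 0.131 RPKM in control, at 0.912, 2.36 and 1.19 in Cop1 deletion and at 10.8, 7.09, 12.7 and 8.97 in the Etv1/4/5 libraries. The 3 groups did not overlap. Tacr3 was higher by 3.94 against control (SE 0.24, adjusted p = 4.04e-05) and by 2.42 against Cop1 deletion (SE 0.24, adjusted p = 2.28e-04). Rec8 (NCBI Gene 56739), which encodes a meiotic cohesin subunit, was at 1.65, 1.94 and 1.34 RPKM in control and at 24.8, 18.8, 16 and 11.8 in the Etv1/4/5 libraries. The Cop1 deletion libraries, at 2.52, 2.28 and 1.87 RPKM, lay near control. Rec8 differed by 3.06 from control (SE 0.21, adjusted p = 8.63e-05) and by 2.71 from Cop1 deletion (adjusted p = 6.84e-05). Acot12, a cytosolic acetyl-CoA hydrolase, was at 0.016, 0.034 and 0.0541 RPKM in control, 0.675, 0.742 and 0.752 in Cop1 deletion and 2, 1.42, 4.31 and 2.94 in the Etv1/4/5 libraries. It stepped up without overlap between the groups, by 2.48 against control (SE 0.25, adjusted p = 7.3e-04) and 1.29 against Cop1 deletion (adjusted p = 0.00848). Fzd9, a WNT receptor, differed by 1.71 from control (adjusted p = 0.00322) and by 0.97 from Cop1 deletion (adjusted p = 0.0184, but 0.0652 and 0.0758 without Cop1 deletion replicates 3 and 4).

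The predicted gene Gm11942 (NCBI Gene 665298, chromosome 4) was at 0.441, 0.156 and 0.372 RPKM in control, at 0.0968, 0.102 and 0.539 in Cop1 deletion and at 12.7, 9.57, 7.04 and 7.33 in the Etv1/4/5 libraries. It was called against both groups (3.53 and 3.71, SE 0.25 each, adjusted p = 8.63e-05 and 2.89e-05). In set 2, Gm11942 split the libraries of a genotype. The 4 Etv4/5 libraries had 7.21, 8.69, 8.95 and 7.47 RPKM, 3 controls had 0.0465 to 0.136 and the other 8.49, and 3 Cop1 deletion libraries had 0.0454 to 0.188 and the other 7.89. A level of 7 to 9 RPKM was thus also met in 1 control of set 2, and its difference there between Etv4/5 and control was not called (2.90, SE 1.01, adjusted p = 0.146). Rec8 also varied within set 2, though with a smaller SE, with 5.77, 1.01, 12.8 and 2.52 RPKM in the controls. It differed by 0.76 between Etv4/5 and control there (SE 0.61, adjusted p = 0.583). The non-coding gene 1700030C10Rik reached 1.39 to 2.54 RPKM in the Etv1/4/5 libraries, against 0 to 0.0318 in control (2.13, SE 0.17, adjusted p = 1.11e-04). In the set 2 controls it was at 1.41, 0, 1.78 and 0.905 RPKM. Gm15638, another predicted gene, rose by 1.82 (SE 0.24, adjusted p = 0.00345) in set 1.

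Among the genes that fell, Cmtm8 (NCBI Gene 70031), which encodes a membrane protein of the CKLF-like MARVEL family, was opposed in the deletion groups. It was at 5.27, 5.68 and 5.22 RPKM in control, at 9.27, 9.82 and 9.38 in Cop1 deletion and at 2.86, 2.86, 2.88 and 3.42 in the Etv1/4/5 libraries. No 2 groups overlapped. Cmtm8 fell by 0.75 log2 units against control (SE 0.07, adjusted p = 5.22e-04) and by 1.51 against Cop1 deletion (SE 0.07, adjusted p = 3e-06). Cys1, a gene of the primary cilium, was at 4.14, 4.17 and 5.41 RPKM in control and at 0.721, 1.46, 1.31 and 2.19 in the Etv1/4/5 libraries, all of them lower (-1.45, SE 0.21, adjusted p = 0.00785). In Cop1 deletion it was at 3.55 to 3.94 RPKM, and it fell by 1.19 against that group too (adjusted p = 0.0061). Snapc1, a subunit of the factor that starts snRNA transcription, was at 13.4, 14.7 and 11.8 RPKM in control and at 7.31 to 8.33 in the Etv1/4/5 libraries (-0.73, SE 0.08, adjusted p = 0.00171). Ubtd2, a ubiquitin-domain gene, fell by 0.81 (SE 0.09, adjusted p = 0.0013). Bcl6b, a transcriptional repressor, fell by 0.53 (SE 0.09, adjusted p = 0.0145), and these 5 genes were called in each alternative. Gadd45b, a stress sensor gene, was at 94.5, 103 and 99.4 RPKM in control and at 60.1, 62.9, 61.5 and 66.3 in the Etv1/4/5 libraries. It fell by 0.65 (SE 0.06, adjusted p = 2.72e-04), while in Cop1 deletion it was lower still, at 36.9 to 41.8 RPKM. Its call was lost in the limma fit of all 6 groups of both sets (adjusted p = 0.375).

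The 15 largest falls also took in Ppp1r3c, a glycogen-targeting subunit of protein phosphatase 1, at 7.78, 4.43 and 5.32 RPKM in control and 2.08 to 3.3 in the Etv1/4/5 libraries (-0.99, SE 0.19, adjusted p = 0.0272). Slc5a3, the sodium-coupled inositol transporter, fell by 0.87 (adjusted p = 0.0276), and Vsnl1, a neuronal calcium sensor, by 0.85 (adjusted p = 0.038). Acp1, a low-weight tyrosine phosphatase, fell by 0.80 (adjusted p = 0.0296), Ankrd34a by 0.73 (adjusted p = 0.0328), the HSP40 gene Dnajb4 by 0.72 (adjusted p = 0.0155) and C130046K22Rik by 1.07 (adjusted p = 0.0456). Each of these 7 lost its call without control replicate 1 and without Etv1/4/5 replicate 1. The adjusted p without control replicate 1 was 0.0837 for Ppp1r3c, 0.107 for Slc5a3, 0.116 for Vsnl1, 0.109 for Acp1, 0.0871 for Ankrd34a, 0.0544 for Dnajb4 and 0.15 for C130046K22Rik. Without Etv1/4/5 replicate 1 it was 0.0866, 0.0866, 0.115, 0.0827, 0.0979, 0.0569 and 0.0979 in the same order. The call was also lost, with the adjusted p in parentheses, without control replicate 3 for Ppp1r3c (0.0561), Slc5a3 (0.0539), Vsnl1 (0.0884), Ankrd34a (0.086), Dnajb4 (0.0556) and C130046K22Rik (0.108). Without Cop1 deletion replicate 2 the same held for C130046K22Rik (0.0636). Without Cop1 deletion replicate 3 the same held for Slc5a3 (0.0522), Vsnl1 (0.0547), Acp1 (0.0558) and C130046K22Rik (0.082). Without Cop1 deletion replicate 4 the same held for Vsnl1 (0.0601) and C130046K22Rik (0.0647). Leaving out Etv1/4/5 replicate 2 ended it for Slc5a3 (0.0626) and Ankrd34a (0.0658). Leaving out Etv1/4/5 replicate 3 ended it for Ppp1r3c (0.0816), Slc5a3 (0.0851), Vsnl1 (0.107), Acp1 (0.0816), Ankrd34a (0.0874) and Dnajb4 (0.058). Leaving out Etv1/4/5 replicate 4 ended it for Vsnl1 (0.0863), Ankrd34a (0.0679) and C130046K22Rik (0.0894).

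Other falls also lost their call in fits without 1 library. Npy, neuropeptide Y, was at 36.6, 42.3 and 71.7 RPKM in control and at 16.5, 18.2, 15.5 and 20.1 in the Etv1/4/5 libraries. The controls were the more variable group, and Npy fell by 1.43 (SE 0.23, adjusted p = 0.017), with 18.7, 12.2 and 18.5 RPKM in Cop1 deletion. Without Etv1/4/5 replicate 1 or 3 its adjusted p was 0.0628 or 0.0614, at a log2 fold change of -1.405 or -1.377. Meox1 (NCBI Gene 17285), a homeobox gene, was at 9.81, 8.65 and 8.29 RPKM in control and at 0.756, 3.49, 1.22 and 3.47 in the Etv1/4/5 libraries. Its Etv1/4/5 values fell into a lower and a higher pair, all under control (-1.96, SE 0.39, adjusted p = 0.0411). It was called in only 2 of the 10 fits that left out 1 library: its adjusted p was 0.0505 without control replicate 2 or Etv1/4/5 replicate 1, 0.149 and 0.104 without control replicates 1 and 3, 0.107 without Etv1/4/5 replicate 3 and 0.0636, 0.0762 and 0.0634 without Cop1 deletion replicates 2, 3 and 4. In the fits that lost the call, the log2 fold change of Meox1 ran from -2.006 to -1.643. Meox1 is the next gene after Etv4 on chromosome 11. In set 2, where the labels give 1 knockout allele of Etv4, it was at 2.89 to 3.34 RPKM in Etv4/5 libraries and 4.08 to 4.74 in controls (-0.46, SE 0.09, adjusted p = 0.0137).

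The genes next to each targeted locus were then examined. Among the 15 tested genes on each side, 1 of 30 was called around each of Cop1, Etv1, Etv4 and Etv5, against 1.99% of all genes. Against Cop1 deletion, 9 of 30 were called around Cop1 and 4 of 30 around each of the others, beside 12.6% of all genes. Those called against control were Cacybp, a binding partner of ubiquitin ligases 5 genes from Cop1 (-0.59, SE 0.06, adjusted p = 7.3e-04), Scfd1, a vesicle transport gene 15 genes from Etv1 (-0.25, adjusted p = 0.0407), Meox1, and Dgkg, the neighbour of Etv5. Dgkg also rose in Cop1 deletion, where Etv5 is not floxed, against the shared controls (1.34, adjusted p = 3.04e-04). Any part of the Etv5 locus in the rise of Dgkg was not tested. Scfd1 kept its call in 3 of 10 fits without 1 library: its adjusted p was 0.152 without control replicate 1, 0.11, 0.0613, 0.0936 and 0.0755 without Etv1/4/5 replicates 1 to 4, and 0.0523 and 0.0725 without Cop1 deletion replicates 2 and 3. Pappa2, which adjoins Cop1 and encodes a protease of IGF-binding proteins, was at 50.3, 68.7 and 68.5 RPKM in control and at 61.5, 60.1, 52.3 and 50.9 in the Etv1/4/5 libraries, so the groups overlapped (-0.14, SE 0.11, adjusted p = 0.583). In Cop1 deletion it was at 181, 164 and 170 RPKM, and the Etv1/4/5 libraries lay 1.60 below (adjusted p = 3.2e-05). Cacybp, Pappa2 and Scfd1 were picked after their values were seen. By chromosome, 18 of 450 genes (4%) were called on chromosome 12, which holds Etv1, and 0.578% to 2.9% on the other autosomes.

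The genes of the cytosolic heat shock response were the list with the most falls. Chaperones of this list (the HSP70, HSP90 and HSP60 families and their co-chaperones) fold client proteins, and HSF1 raises their transcription under stress. Of 15 tested, 7 were lower and 0 higher, against 0.661% of all genes called lower, and the median log2 fold change was -0.68 with 15 of 15 negative. Over all genes the median was -0.0028 with 49% positive. Hspa8, the constitutive HSP70, was at 75.9, 61.8 and 79.5 RPKM in control and at 41.4, 40.7, 44.6 and 47.6 in the Etv1/4/5 libraries. These did not overlap, and Hspa8 fell by 0.72 (SE 0.09, adjusted p = 0.00257). In the limma fit of all 6 groups of both sets, Hspa8 was not called (adjusted p = 0.083). Hsp90aa1 was at 25.8, 21 and 28.7 RPKM against 12.3, 12.7, 14.8 and 16 (-0.82, SE 0.12, adjusted p = 0.00701). Hspd1, the mitochondrial HSP60, was at 25.2, 21.6 and 21.2 RPKM against 12.7, 13.4, 15 and 16 (-0.65, SE 0.09, adjusted p = 0.00564). Each of these chaperones was lower in 4 of 4 libraries.

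Dnaja1, an HSP40 co-chaperone, fell by 0.68 (SE 0.10, adjusted p = 0.00701), Hsp90ab1 by 0.64 (adjusted p = 0.0076) and Bag3, which links HSP70 to autophagy, by 0.84 (SE 0.14, adjusted p = 0.0145). Hspe1, the co-chaperonin of HSP60, fell by 0.67 (SE 0.14, adjusted p = 0.0476). The inducible Hspa1a was at 390, 164 and 547 RPKM in control and at 89.8, 113, 142 and 185 in the Etv1/4/5 libraries, where control replicate 2 lay within the range of the Etv1/4/5 values (-1.35, SE 0.40, adjusted p = 0.145). Hspa1b was at 401, 211 and 581 RPKM in control and at 107.5 to 192 in the Etv1/4/5 libraries (-1.37, adjusted p = 0.0782), and reads may be split between these near-identical copies. Dnajb1 was at 1108, 695 and 1357 RPKM against 423 to 617 (-0.99, SE 0.21, adjusted p = 0.0516). Hsp90ab1, Hspe1, Hspa1a, Hspa1b and Dnajb1 were picked after their values were seen. The summed level of the list was 1680 to 2300 RPKM in the Etv1/4/5 libraries, below the 2760 to 4370 of control and the 2370 to 2620 of Cop1 deletion.

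Control replicate 2 had the lowest heat shock values of the controls in Hspa8, Hsp90aa1, Hspa1a and Dnajb1. Without it, 10 of the 15 were lower, against 2.75% of all genes: Hspa1a, Hspa1b and Dnajb1 were then called at adjusted p = 0.00986, 0.00823 and 0.00301. The count was 5 to 10 over the fits that left out 1 library. Bag3 was not called without control replicate 1 (adjusted p = 0.0649). Hspe1 was called in 2 of these 10 fits, and its adjusted p was 0.168 and 0.127 without control replicates 1 and 3, 0.116, 0.0996 and 0.0919 without Etv1/4/5 replicates 1, 2 and 3, and 0.062, 0.0829 and 0.06 without Cop1 deletion replicates 2, 3 and 4. Fos, an immediate early gene that handling of tissue can induce, was at 1275, 229 and 1660 RPKM in control and 382 to 651 in the Etv1/4/5 libraries (-0.64, SE 0.71, adjusted p = 0.72). The 21 genes of the AP-1 list had a median of -0.23, with 0 called and 4 positive, and their summed level was 3330 to 9230 RPKM in control and 4140 to 5300 in the Etv1/4/5 libraries. Whether these genes play a part in the heat shock result was not tested. Against Cop1 deletion 0 of the 15 heat shock genes were called (median -0.12), and 6 were lower in Cop1 deletion against the shared controls, where 8.26% of all genes were lower. In set 2, whose libraries are separate, 2 of 15 were lower in Cop1 deletion (4.84% of all genes): Hspd1 (-0.42, adjusted p = 0.0138) and Dnaja1 (-0.27, adjusted p = 0.0445). In the Etv4/5 libraries of set 2 against control, 0 of the 15 were called (median -0.23), where 1.85% of all genes were lower. The level of these genes also differed between the sets. Hsp90aa1 had a mean of 25.17 RPKM in set 1 control, 13.97 in the Etv1/4/5 libraries and 5.035 in set 2 control. The means of Bag3 were 118.5, 66.19 and 35.65 RPKM in the same order, and those of Hspd1 22.67, 14.29 and 11.98. For these genes the set 2 control mean thus lay below that of the Etv1/4/5 libraries. The cause of this difference between the sets was not tested.

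Promoters of the heat shock list were examined because 7 of its genes fell. HSF1 binds repeats of GAA in alternating orientation. GAANNTTC, a pair of such repeats that reads the same on both strands, was in 9 of the 11 heat shock promoters with a RefSeq entry (81.8%) and in 6.83% of the 9800 promoters of all tested genes. Among genes called lower it was in 7 of 69 (10.1%), and 4 of these 7 were genes of the heat shock list. The windows of Dnajb4, Cacybp and Snapc1, which fell, held no GAANNTTC. The other order of the pair, TTCNNGAA, was not searched on its own. A window of Dnajb4 holds it, as ttctagaa, so a lack of GAANNTTC does not show that a promoter lacks such repeats. This pattern was chosen after the data were seen, and a match describes the letters only. The windows of 3 list genes that fell and hold it are shown with the pair in capitals. They lie at chr1:55087898-55088197 for Hspe1 (plus strand), chr4:40722218-40722517 for Dnaja1 (plus strand, 1 of its 3 starts) and chr7:128523333-128523632 for Bag3 (plus strand), on GRCm38.p6. Hspe1 and Hspd1 are read in opposite directions from this region of chromosome 1, and 1 of the windows of Hspd1, at chr1:55087883-55088182 on the minus strand, overlaps that of Hspe1 and holds the same pair.
Hspe1: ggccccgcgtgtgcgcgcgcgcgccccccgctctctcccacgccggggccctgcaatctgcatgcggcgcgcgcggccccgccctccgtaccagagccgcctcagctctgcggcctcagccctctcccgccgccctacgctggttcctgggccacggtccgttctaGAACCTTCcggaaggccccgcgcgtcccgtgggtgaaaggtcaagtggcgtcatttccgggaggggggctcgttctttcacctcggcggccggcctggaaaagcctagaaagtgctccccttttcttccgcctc
Dnaja1: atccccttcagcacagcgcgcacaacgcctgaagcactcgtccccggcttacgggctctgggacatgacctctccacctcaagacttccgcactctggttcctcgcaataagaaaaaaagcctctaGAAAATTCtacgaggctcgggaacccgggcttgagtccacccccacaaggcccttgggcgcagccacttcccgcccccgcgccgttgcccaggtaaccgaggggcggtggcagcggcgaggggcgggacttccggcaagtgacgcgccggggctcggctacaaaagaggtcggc
Bag3: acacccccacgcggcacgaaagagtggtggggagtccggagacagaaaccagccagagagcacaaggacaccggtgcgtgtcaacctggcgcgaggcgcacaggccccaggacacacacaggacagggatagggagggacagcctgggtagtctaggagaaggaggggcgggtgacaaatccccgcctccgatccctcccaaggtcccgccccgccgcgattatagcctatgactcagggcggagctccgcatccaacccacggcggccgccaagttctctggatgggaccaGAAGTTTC

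CCGGAA, the only form of the ETS site searched, was on either strand in 30.9% of all 9800 promoters. It was in 18 of the 133 promoters of genes called higher (13.5%), in 1 of 25 of those at least 2-fold higher (4%) and in 19 of 69 of genes called lower (27.5%). The windows of Rnf152, Tacr3, Rec8 and Cmtm8 held no CCGGAA, which does not show that they lack other forms of the ETS site. TGANTCA, the AP-1 site, was in 7.52% of the higher, 5.8% of the lower and 6.1% of all promoters, and the E-box CACGTG in 9.77%, 10.1% and 12%. None of these shares was tested.

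Genes of serine synthesis and of the amino acid response, which ATF4 drives, lay mostly above 0. Of 18 tested, 2 were higher and 0 lower, with 17 of 18 positive and a median of 0.36. Of all genes, 1.33% were higher and 49% positive. Shmt2, mitochondrial serine hydroxymethyltransferase, was at 9.76, 9.24 and 10.9 RPKM in control and at 14.5, 13.6, 16.7 and 13.2 in the Etv1/4/5 libraries. All 4 were higher (0.52, SE 0.10, adjusted p = 0.0241). Pycr1, an enzyme of proline synthesis, was at 8.74, 8.38 and 8.62 RPKM against 12.4, 11, 12 and 10.1 (0.39, SE 0.07, adjusted p = 0.0246). Psat1, named after its values were seen, was at 5.36, 10.6 and 6.69 RPKM against 12.6, 11.5, 13.1 and 12.2, with control replicate 2 nearest to the Etv1/4/5 values (0.73, SE 0.18, adjusted p = 0.0732, and 0.00153 without that control). Without control replicate 2, 12 of 18 were higher, against 3.85% of all genes. Without control replicate 1 or Etv1/4/5 replicate 1 or 3, 0 were. The adjusted p of Shmt2 was then 0.101, 0.0728 and 0.058, and that of Pycr1 0.0833, 0.0727 and 0.0827; Pycr1 was also not called without control replicate 3 (adjusted p = 0.0533). In set 2 Cop1 deletion, the median of the same 18 genes was -0.37, and Psat1 fell by 0.84 (adjusted p = 0.0418). The 26 genes of folding in the endoplasmic reticulum had 0 called, 24 positive and a median of 0.22. Hspa5, the chaperone BiP, was at 2753, 2889 and 2369 RPKM in control and 3360, 3392, 3290 and 3070 in the Etv1/4/5 libraries, without overlap (0.30, SE 0.07, adjusted p = 0.0696, and 0.028 without control replicate 2).

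**Figure D3:**
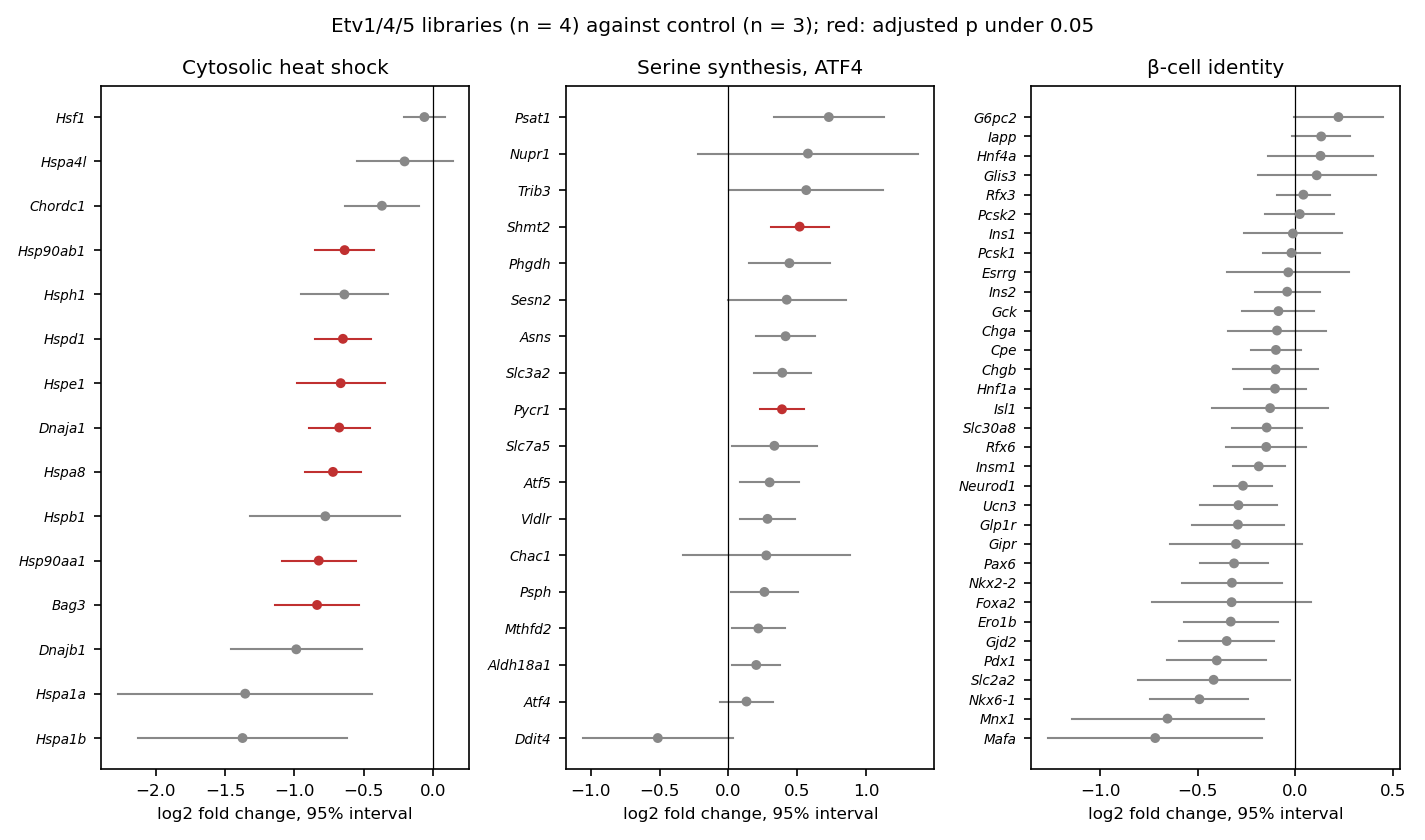
Log2 fold change with 95% interval (Etv1/4/5 libraries, n = 4, against control, n = 3) for the tested genes of 3 lists, in red where the adjusted p was under 0.05. The 15 heat shock genes lie below 0 and 7 are red, 17 of 18 amino acid genes lie above 0 and 2 are red, and the 33 genes of β-cell identity have none in red.

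Of 33 genes of β-cell identity tested, 0 were called between the Etv1/4/5 libraries and control in limma, while 13 were lower and 0 higher at an unadjusted p under 0.05. Of all genes, 8.17% were lower and 7.86% higher at that unadjusted p. The median was -0.15, with 27 of 33 negative. Ins1 was at 50280, 40560 and 45930 RPKM in control and at 44870, 48040, 43500 and 43830 in the Etv1/4/5 libraries. The groups overlapped, and the difference was -0.01 (95% interval -0.26 to 0.24). Ins2 overlapped as well (-0.04, 95% interval -0.21 to 0.12). Slc2a2, the glucose transporter GLUT2, was at 272, 189 and 247 RPKM against 170, 206, 148 and 179, with an overlap at control replicate 2 (-0.42, 95% interval -0.81 to -0.03, adjusted p = 0.279). Mafa, the transcription factor of mature β cells, was at 191, 144 and 318 RPKM against 112, 132, 125 and 132. The 4 Etv1/4/5 libraries lay below the lowest control (-0.72, SE 0.24, adjusted p = 0.183). Without control replicate 2 Mafa was lower at an adjusted p of 0.0389, and 11 of the 33 genes were lower, against 2.75% of all genes.

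Set against Cop1 deletion alone, 8 of the 33 were higher and 3 lower, against 7.17% and 5.41% of all genes. Slc2a2 was at 45, 62.8 and 69 RPKM in Cop1 deletion, under each Etv1/4/5 library, and the Etv1/4/5 libraries were higher by 1.58 (SE 0.17, adjusted p = 5.64e-04). Mafa was at 41.3, 59.3 and 61.3 RPKM there, and higher by 1.23 in the Etv1/4/5 libraries (SE 0.24, adjusted p = 0.012). Ins1, at 20790, 23110 and 29060 RPKM in Cop1 deletion, was higher by 0.90 (SE 0.11, adjusted p = 7.2e-04). Slc30a8, the zinc transporter of the insulin granule, and G6pc2, an islet glucose-6-phosphatase, were higher by 1.0 (95% interval 0.82 to 1.18) and 1.24 (adjusted p = 6.71e-05 and 7.2e-05). Against control these 2 genes differed by -0.15 (95% interval -0.32 to 0.03) and 0.22 (95% interval -0.01 to 0.45). Chgb, chromogranin B, was at 704, 799 and 731 RPKM in control, 610, 617, 811 and 758 in the Etv1/4/5 libraries and 2144, 2128 and 2061 in Cop1 deletion. The Cop1 deletion group stood alone, with the Etv1/4/5 libraries 1.61 lower (SE 0.10, adjusted p = 2.29e-05) and overlapping control (-0.10, 95% interval -0.32 to 0.12). Mafa, Slc30a8, G6pc2 and Chgb were picked after their values were seen. An interval that spans 0 does not show that the Etv1/4/5 libraries are at the level of control.

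Aldh1a3, a retinaldehyde dehydrogenase used to mark dedifferentiated β cells, was at 2.04, 12.7 and 0.776 RPKM in control, 4.07, 4.47, 2.76 and 2.82 in the Etv1/4/5 libraries and 37.7, 39.4 and 21.2 in Cop1 deletion. Control replicate 2 was the highest of the controls, and the comparison with control has a wide interval (0.18, 95% interval -1.48 to 1.84). Against Cop1 deletion the Etv1/4/5 libraries were 3.02 lower (SE 0.72, adjusted p = 0.0326). That call was lost without Cop1 deletion replicates 2, 3 or 4 or Etv1/4/5 replicates 1, 3 or 4 (adjusted p = 0.0996, 0.103, 0.0645, 0.0712, 0.0743 and 0.0757). Cartpt, which encodes the CART peptide, was 2.29 lower (SE 0.27, adjusted p = 7.54e-04), at 2.27 to 3.57 RPKM against 11.4 to 18.6, and Gm15663 2.68 lower (SE 0.11, adjusted p = 1.29e-06). Both overlapped control, with differences of -0.33 (adjusted p = 0.6) and -0.08 (adjusted p = 0.753). The 6 tested genes of the progenitor and dedifferentiation list had 0 called against control and 3 lower against Cop1 deletion, where 5.41% of all genes were lower.

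**Figure D4:**
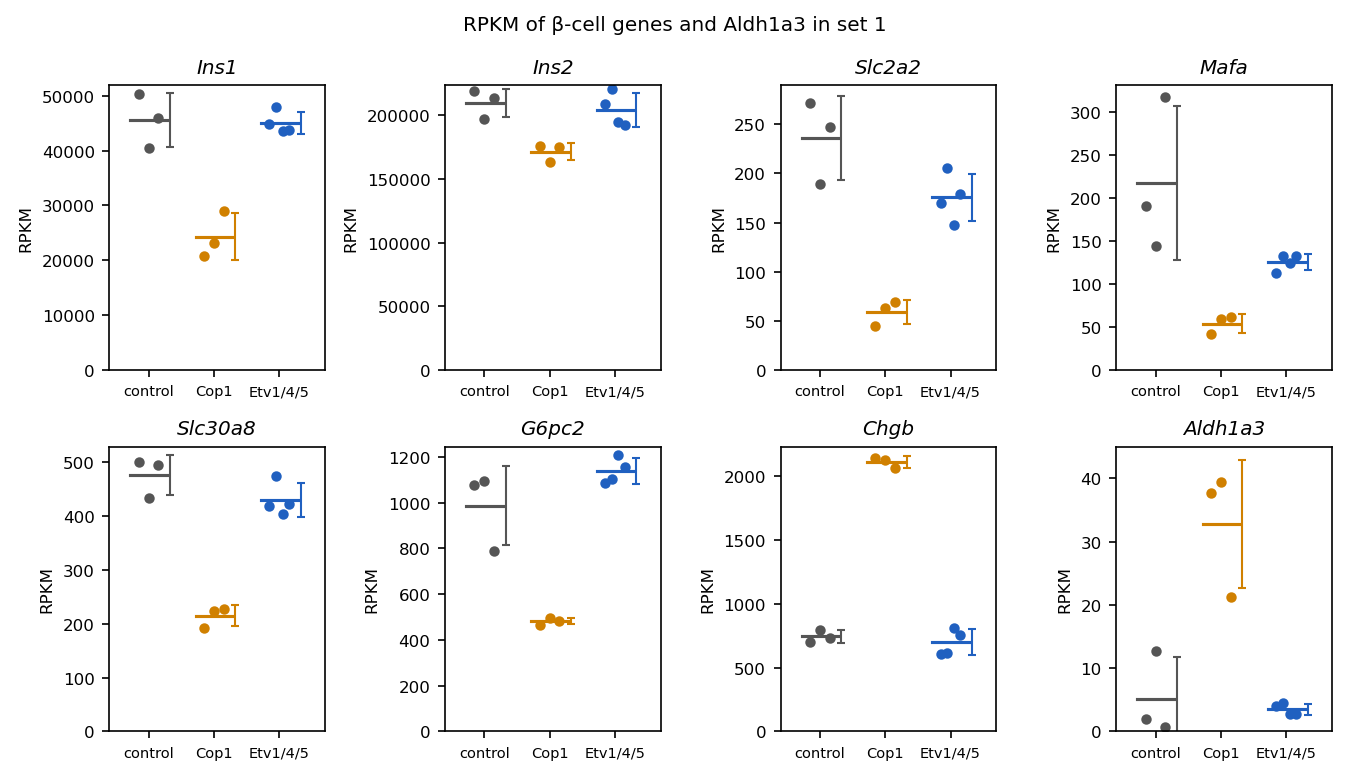
RPKM of 7 β-cell genes and Aldh1a3 in the set 1 libraries (points), with group mean (line) and SD (bar). Control (n = 3) and Etv1/4/5 libraries (n = 4) lie close together for Ins1, G6pc2 and Chgb, with Cop1 deletion (n = 3) apart; Mafa and Slc2a2 lie between the other groups in the Etv1/4/5 libraries.

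In the lists of stimulus-secretion coupling, 2 of 29 ion channels rose, against 1.33% of all genes: Trpc1, a cation channel (0.84, SE 0.09, adjusted p = 8.83e-04), at 20.8 to 27.7 RPKM against 12 to 13.7, and the sodium channel Scn3a (0.69, SE 0.09, adjusted p = 0.00348), at 3.48 to 4.47 RPKM against 2.09 to 2.34. Scn3a lost its call in the limma fit of all 6 groups of both sets (adjusted p = 0.213). Of 45 exocytosis genes 2 were called, against 1.99% of all genes. Cadps2, a priming factor, rose by 0.47 (adjusted p = 0.0283) and Sytl4, the granule docking protein granuphilin, fell by 0.58 (adjusted p = 0.0411). Sytl4 was at 121, 97.3 and 130 RPKM in control, 70.6 to 86 in the Etv1/4/5 libraries and 32.3 to 43.1 in Cop1 deletion, so that the 3 groups did not overlap. It was higher by 1.04 than in Cop1 deletion (SE 0.12, adjusted p = 5.6e-04). Cadps2 lost its call without control replicate 3, Cop1 deletion replicate 3 or Etv1/4/5 replicates 1, 3 or 4 (adjusted p = 0.0704, 0.0516, 0.091, 0.0862 and 0.0651). Sytl4 lost it without control replicates 1 or 3, Cop1 deletion replicate 3 or Etv1/4/5 replicates 1, 3 or 4 (adjusted p = 0.158, 0.111, 0.0762, 0.121, 0.114 and 0.0762).

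In the remaining lists, 1 called gene each was found in the receptors (Tacr3), in the COP1 ligase and substrates (Cebpb, a bZIP factor, 0.45, adjusted p = 0.0449), in the neural markers (Th, tyrosine hydroxylase, 1.15, adjusted p = 0.0358), in the imprinted genes (Ndn, necdin, 0.34, SE 0.05, adjusted p = 0.0109) and in the hormones of other islet cells (Npy). Ndn was at 33.5, 30.7 and 34.8 RPKM in control and at 43.5, 40.5, 43.3 and 40.4 in the Etv1/4/5 libraries, without overlap. Th was at 19.4, 16.6 and 16.9 RPKM against 40.2, 36.8, 43.7 and 38, also without overlap, but was called in 3 of the 10 fits without 1 library: its adjusted p was 0.0948, 0.0512 and 0.105 without control replicates 1 to 3 and 0.105, 0.0616, 0.104 and 0.0749 without Etv1/4/5 replicates 1 to 4. Cebpb was called in 2 of these fits, with adjusted p of 0.17 and 0.0949 without control replicates 1 and 3, 0.129, 0.107 and 0.0587 without Etv1/4/5 replicates 1, 3 and 4, and 0.0609, 0.0807 and 0.0591 without Cop1 deletion replicates 2, 3 and 4. The lists of ERK feedback (16 genes), PEA3 targets named in other tissues (15) and ETS factors (17) had 0 called, with medians of 0.12, -0.05 and 0.05. Dusp5, a nuclear ERK phosphatase, was at 137, 113 and 116 RPKM in control and 141, 126, 141 and 132 in the Etv1/4/5 libraries (0.15, SE 0.07, adjusted p = 0.358). Markers of acinar, ductal, immune and stromal cells likewise had 0 called. The acinar gene Ctrb1 ran from 864 to 2444 RPKM in control and from 752 to 3977 in the Etv1/4/5 libraries, so acinar RNA varied within each group. At an unadjusted p under 0.05, these 7 lists pooled held 10 genes higher and 4 lower among 116, shares near or below the 7.86% and 8.17% of all genes. Single lists departed from this. At that p, 3 of 15 stromal and 2 of 12 ductal markers were higher and 0 lower. The cell cycle list, outside these 7, had 0 of 15 called, with 6 lower and 1 higher at that p and 12 negative.

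Set 2 shares no library with set 1 and was used to see how the called genes moved there. Its controls all had Xist at 51.6 to 62.9 RPKM and Ddx3y at or below 0.00434. Cop1 deletion replicates 2 and 3 and Etv4/5 replicates 1 and 3 had Xist at or below 0.0627 and Ddx3y at 7.04 to 15.2. Xist and Ddx3y thus ran partly along with genotype in set 2, and the fits there did not adjust for them. In set 2, 10.3% of all genes were called in either direction for Cop1 deletion and 4.57% for Etv4/5 libraries, both against control. Of the 181 higher genes, 60 (33.1%) were also higher in Cop1 deletion against control in set 2, where 5.45% of all genes were higher, and 3 were lower. In Etv4/5 against control, 63 of the 181 (34.8%) were higher, against 2.72% of all genes, and 2 were lower. Of the 90 lower genes, 20 (22.2%) were lower in set 2 Cop1 deletion, against 4.84% of all, and 10 (11.1%) in Etv4/5, against 1.85%, while 4 and 3 were higher. In Etv4/5, 145 of the 181 were above 0 (80.1%, against 47.8% of all genes) and 62 of the 90 below (68.9%, against 52.1%). In set 2 Cop1 deletion these were 137 of 181 (75.7%, against 46.2%) and 63 of 90 (70%, against 53.8%). Aqp3 rose from 0.241 ± 0.13 RPKM (SD, n = 4) in set 2 controls to 37.8 ± 2.7 in Etv4/5 libraries (5.71, SE 0.11, adjusted p = 1.04e-10). Rnf152 and Tm4sf20 rose there by 3.08 and 3.85 (adjusted p = 3.31e-05 and 7.49e-05), Wipi1 by 1.32 and Bik by 1.44 (adjusted p = 4.26e-04 and 0.00102).

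Some rises were not called in set 2, were called there only in Etv4/5 libraries, or had the opposite sign there. Angpt2 was at 17.7 ± 5.9 RPKM in set 2 controls and 18.3 ± 0.8 in Etv4/5 libraries (0.09, SE 0.17, adjusted p = 0.847), so the mean of the set 2 controls was above the 12.7 to 14.2 RPKM of set 1 Cop1 deletion. Tacr3 was at 1.32 ± 0.45 RPKM in set 2 controls, 2.05 ± 1.3 in Cop1 deletion and 8.82 ± 1.9 in Etv4/5 libraries (n = 4 each). It was higher in Etv4/5 than in control (2.37, SE 0.31, adjusted p = 0.00145), and not called in Cop1 deletion (0.38, adjusted p = 0.439). Padi2, a peptidylarginine deiminase, rose by 1.29 in set 1 (SE 0.22, adjusted p = 0.0138, and 0.0515 without control replicate 1) and fell by 1.10 in set 2 Etv4/5 libraries (SE 0.24, adjusted p = 0.0263). The 2 genotypes differ in Etv1 and in the number of Etv4 knockout alleles, and the difference between the sets was not tested. Several of the largest falls did not recur in set 2. Cmtm8 was not called in Etv4/5 libraries (0.06, adjusted p = 0.918) and was higher in Cop1 deletion (0.64, adjusted p = 0.0347). Cys1 was called in neither (-0.44 and -0.24, adjusted p = 0.544 and 0.651), nor were Slc5a3, Vsnl1, Ppp1r3c and Acp1. Among genes that fell in both sets, Cbs, cystathionine β-synthase, was lower by 0.51 in set 1 (adjusted p = 0.0481) and by 1.78 in set 2 Etv4/5 libraries (SE 0.13, adjusted p = 3.31e-05), and Ubtd2 by 0.34 there (adjusted p = 0.0275). Fkbp1b, a regulator of ryanodine receptors, Mns1, Gng12 and Coro2b fell by 0.65, 0.47, 0.51 and 0.49 in set 1 (adjusted p = 0.0262, 0.0145, 0.0269 and 0.03) and by 1.29, 1.06, 1.12 and 0.50 in set 2 Cop1 deletion (adjusted p = 0.00149, 4.67e-04, 0.00277 and 0.027). In set 1 these 4 lost their calls without control replicate 1 (adjusted p = 0.115, 0.0795, 0.0992 and 0.0912) and without Etv1/4/5 replicate 1 (adjusted p = 0.0618, 0.0565, 0.0685 and 0.0685). The call was also lost, with the adjusted p in parentheses, without control replicate 3 for Fkbp1b (0.0817) and Coro2b (0.0773). Without Cop1 deletion replicate 3 the same held for Gng12 (0.0522) and Coro2b (0.0547). Leaving out Etv1/4/5 replicate 2 ended it for Coro2b (0.0566). Leaving out Etv1/4/5 replicate 3 ended it for Fkbp1b (0.0841), Gng12 (0.0505) and Coro2b (0.0902). Leaving out Etv1/4/5 replicate 4 ended it for Gng12 (0.0632). Cbs was called in 4 of 10 fits of set 1 without 1 library, with adjusted p of 0.153 and 0.118 without control replicates 1 and 3, 0.101, 0.13 and 0.108 without Etv1/4/5 replicates 1, 3 and 4 and 0.0789 without Cop1 deletion replicate 3.

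**Figure D5:**
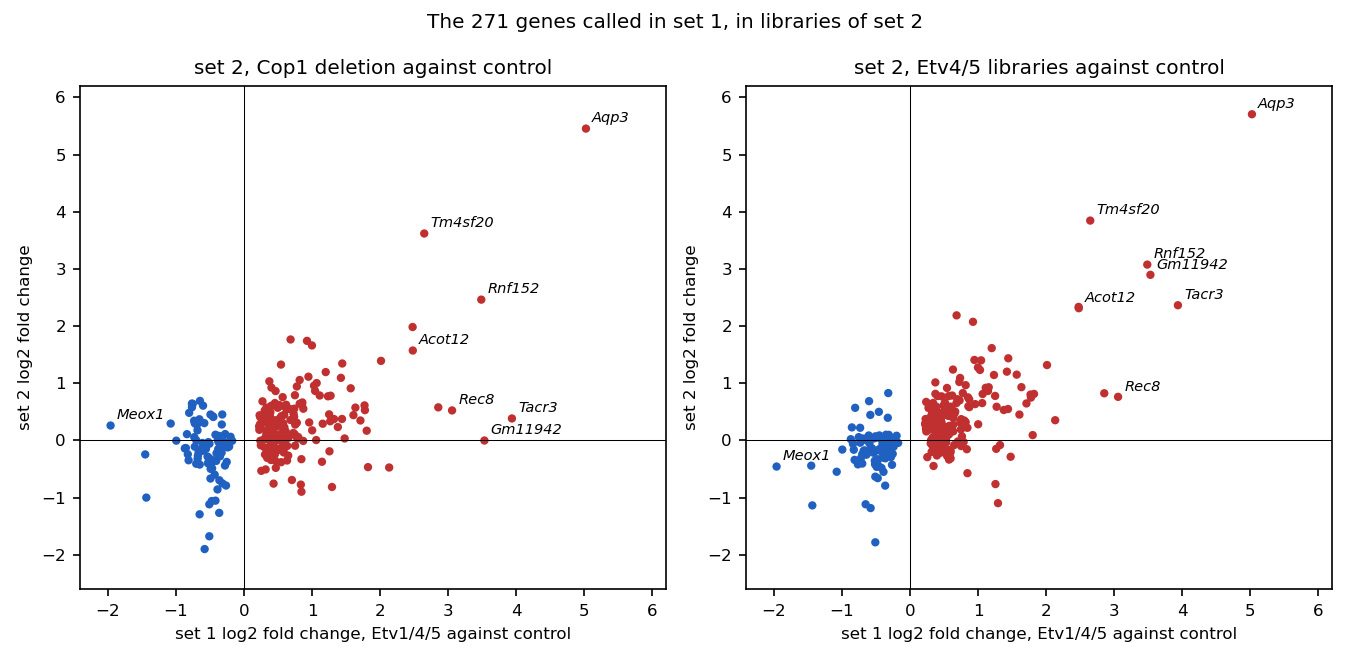
The 271 genes called in set 1, with the log2 fold change of Etv1/4/5 libraries against control on the x axis and that of set 2 on the y axis, for Cop1 deletion (left) and Etv4/5 libraries (right) against set 2 controls; red and blue are genes called higher and lower in set 1. Aqp3, Rnf152 and Tm4sf20 lie high in both panels, and Tacr3 and Gm11942 only in the right one.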

How the data were processed

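RNA of cultured, handpicked mouse islets was sequenced, and the authors deposited 1 table of RPKM values per gene, with 28059 genes. The submitters' processing notes name the mm9 build. For the aligner and the read counter, no name was given in the sources used here. Of 24 value columns, 2 were not used: no single title carried their sample number. Read numbers are unknown. Relative depth was estimated from the steps of 3086 low genes, whose values came out as whole multiples in 87.0 to 88.3% of cases (tolerance 0.02), too few to recover counts.

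Genes with at least 1 RPKM in 3 or more of the 7 libraries were tested (13606, of which 1019 have no symbol). limma 3.58.1 in R 4.3.3, with trend and robust variances, was fitted to log2(RPKM + 0.5) over the 10 libraries of set 1, and apart over the 12 of set 2, with Benjamini-Hochberg adjustment over all genes tested and a threshold of 0.05. Fold changes on this scale understate the change of low genes. Single values were compared by an exact permutation test over 35 splits.

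The members and the 30 gene lists were chosen with earlier results of these data known. The genes described were drawn from the targeted genes, the 15 largest called changes in each direction at a mean of 1 RPKM without overlap, up to 4 called genes of a list or its 2 most abundant where none was called, up to 10 genes called alike in set 2 in each direction, and 5 with the largest differences from Cop1 deletion; not all are printed, 1 called gene is not reported here, and others are marked where they appear. Alternatives changed the pseudocount, filter, scaling, libraries fitted, variance model and a single library left out. Promoter windows came from the RefSeq table of GRCm38.p6, which held 9800 of the genes.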

Additional observations from a re-analysis of the deposited data

Results flagged for a closer look

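Each of the 87 genes named or examined was checked for a library far from the others of the Etv1/4/5 group (4 libraries), by whether the gap to the nearest library exceeded 0.829 of the group's range. Chance gives such a gap in about 1 of 20 groups. Cmtm8 was at 3.42 RPKM in Etv1/4/5 replicate 4, while the other libraries lay between 2.86 and 2.88, so that the gap was 0.953 of the range. It remained below the lowest control there. Scfd1 was at 56.0 RPKM in Etv1/4/5 replicate 1, against 60.9 to 61.8 in the others, a gap of 0.838 of the range. Scfd1 was not called without that library.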

How the results depend on the processing

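Of 87 genes examined, 59 were called against control; 31 kept their call in each alternative, 28 lost it in at least 1, and none reversed. No paired analysis was possible because replicate numbers were given in accession order only. Leaving out 1 library gave 88 to 524 genes higher and 25 to 374 lower against control, 539 to 1348 and 400 to 953 against Cop1 deletion, and 589 to 1212 and 655 to 1416 for Cop1 deletion against control. In set 2 it gave 475 to 940 and 318 to 1040 for Cop1 deletion and 195 to 754 and 128 to 608 for Etv4/5. Genes higher in both sets numbered 36 to 95 and lower 7 to 76, heat shock genes lower 5 to 10, amino acid genes higher 0 to 12 and β-cell identity genes lower 0 to 11. The insulin share differed by -2.17 to -0.412 percentage points (-1.24 with all 7). The cause of the changes below was not tested. Without a filter on low values, 42 genes were lower against control and 9 lower in both sets. At equal total RPKM, 425 were higher and 2859 lower against Cop1 deletion, 2205 and 496 for Cop1 deletion against control, 413 higher in set 2 Cop1 deletion, 195 higher in Etv4/5, and 2 β-cell identity genes were lower. Without Ins1 and Ins2 in the total, 537 were higher against Cop1 deletion, 640 in Cop1 deletion, 366 higher and 2446 lower in set 2 Cop1 deletion, 194 and 578 in Etv4/5, 2 β-cell identity genes lower and 1 amino acid gene higher. The 7 libraries alone gave 104 and 35, with 37 and 10 in both sets and 1 amino acid gene. The 6 groups together gave 532 and 372 against Cop1 deletion, 561 and 625 for Cop1 deletion, and 0 amino acid genes. Array weights gave 1308 and 1159, with 190 and 148 in both sets, 1942 and 1564 against Cop1 deletion, 2453 and 2734 for Cop1 deletion, 13 heat shock, 14 amino acid and 18 β-cell identity genes. At a fold change of at least 2 there were 40 and 4, 19 and 0 in both sets, 78 and 46 against Cop1 deletion, 86 and 95 for Cop1 deletion, and 0 heat shock or amino acid genes. The number of reads behind a value is unknown, so differences in genes near 0 RPKM cannot be given a counting interval.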
